A study of Mus musculus with 6 samples.

Results

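The 58 genes described here are markers of the embryonic germ layers and of the heart, measured by RNA sequencing in P19 cells, a mouse embryonal carcinoma line. They were taken by gene name from the 34745 genes of the deposited expression table, and all 58 names were found. They comprise 15 markers of the primitive streak and mesoderm, 10 cardiac transcription factors, 10 contractile, calcium-handling and secreted heart genes, 8 endoderm markers and 15 neural markers. Every member was placed in a detection class, and those with enough counts were compared between cells treated with the peptide PDTLN1 and control cells.

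In the mammalian embryo, cells that pass through the primitive streak become mesoderm and endoderm under Wnt and Nodal signals, and T and Eomes are among the first transcription factors switched on there. Heart progenitors go through a state that expresses Mesp1, then switch on factors such as Nkx2-5, Gata4 and Tbx5, and at last the sarcomere genes. Ectoderm that escapes these signals forms neural tissue, in which Sox1 and Pax6 are early markers. P19 cells resemble undifferentiated cells of the early embryo, and are known to give beating heart muscle or neurons when they are aggregated with an inducing agent.

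The series asks which messenger RNAs differ after PDTLN1. It holds 3 libraries of P19 cells treated with PDTLN1 and 3 libraries of P19 cells labelled as untreated controls. All 6 came from the same line, grown in serum-containing alpha-MEM, and the labels give no dose, no duration and no inducing agent. Total gene counts were 10381307 to 11663081 in the PDTLN1 libraries and 10450134 to 11177756 in the control libraries. Any 2 libraries differed by more than counting error, with a chi-square of 4.92 to 13.0 per degree of freedom over genes. No label states separate cultures for the libraries of a group. The p-values therefore reflect only how these libraries vary, and that variation may be technical.

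Most markers of the line were present: of 18 pluripotency markers, 16 reached 10 counts in all 6 libraries. Dppa5a, with 0 to 4 counts per library, and Zfp42, with 1 to 5, did not. Esrrb was low, at 0.288 FPKM on average in each group. Pou5f1, which encodes the pluripotency factor Oct4, had 526, 469 and 518 FPKM (counts divided by gene length and library size) in PDTLN1 libraries 1, 2 and 3, against 536, 540 and 559 FPKM in control libraries 1, 2 and 3. Nanog had 32.5 to 40.8 FPKM in PDTLN1 libraries and 35.3 to 43.7 FPKM in control libraries. The labels' account of the RNA extraction mentions retinas. Of 15 retina markers, 0 reached 10 counts in all 6 libraries, the photoreceptor genes Crx, Arr3, Opn1sw and Opn1mw had 0 counts throughout, and the summed level of the list was 0.505 to 0.820 FPKM in PDTLN1 libraries and 0.593 to 0.831 FPKM in control libraries.

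Few of the lineage markers were strongly expressed, and those that were belonged to the primitive streak and to the neural set. Silent genes, with 0 counts in all 6 libraries, were 3 in number: Mesp2, a factor of somite segmentation, Tbx5, a T-box factor of the heart and forelimb, and Tnni1, the slow skeletal troponin I that is also used by the fetal heart. A count of 0 allows up to 3 counts in a library, which is 0.257 to 0.289 CPM (counts scaled to library size), and this limit covers counting error only. Another 30 members were at trace level, meaning that at least 1 count was seen but fewer than 10 in some library. The remaining 25 members were detected with at least 10 counts in each of the 6 libraries. Over all genes of the table, 38.8% were silent and 37.5% were detected by the same rules, and among the members these shares were 5.17% and 43.1%. Without control library 3, which held the only counts of Meox1 and Nppa, 5 members had 0 counts.

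Detection differed between the sets. Of 15 mesoderm markers 9 were detected, 5 were at trace level and 1 was silent. Of 15 neural markers 10 were detected and 5 were at trace level. Of the 10 cardiac transcription factors 3 were detected, 6 were at trace level and 1 was silent, and the 10 contractile and secreted heart genes gave the same 3, 6 and 1. None of the 8 endoderm markers was detected in all libraries by this rule, and all 8 were at trace level. Further genes of these lineages, described below, were also counted by this rule. Detected were 20 of 28 endoderm, 20 of 31 cardiac, 19 of 30 mesoderm and 28 of 39 neural genes, beside 37.5% of all genes. The low detection of cardiac and endoderm markers thus holds for the members and depends on which genes are listed. The median level of a set, taken over its genes' mean FPKM in the 6 libraries, was 0.733 FPKM for mesoderm, 0.998 FPKM for neural genes, 0.0661 FPKM for cardiac factors, 0.0987 FPKM for heart structural genes and 0.0685 FPKM for endoderm. In bulk RNA, fewer cells of a type and less RNA per cell cannot be told apart, so a low level does not say how many cells carry the transcript.

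Only 5 members averaged at least 10 FPKM, namely T, Tubb3, Nes, Otx2 and Sox3. Another 10 averaged 1 to 10 FPKM, namely Zic2, Eomes, Actc1, Cdx2, Ncam1, Dcx, Kdr, Mixl1, Evx1 and Gata6. The other 40 members with any count averaged under 1 FPKM. With a level of at least 1 FPKM in every library as the rule, 10 members in place of 25 would have been called detected.

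**Figure D1:**
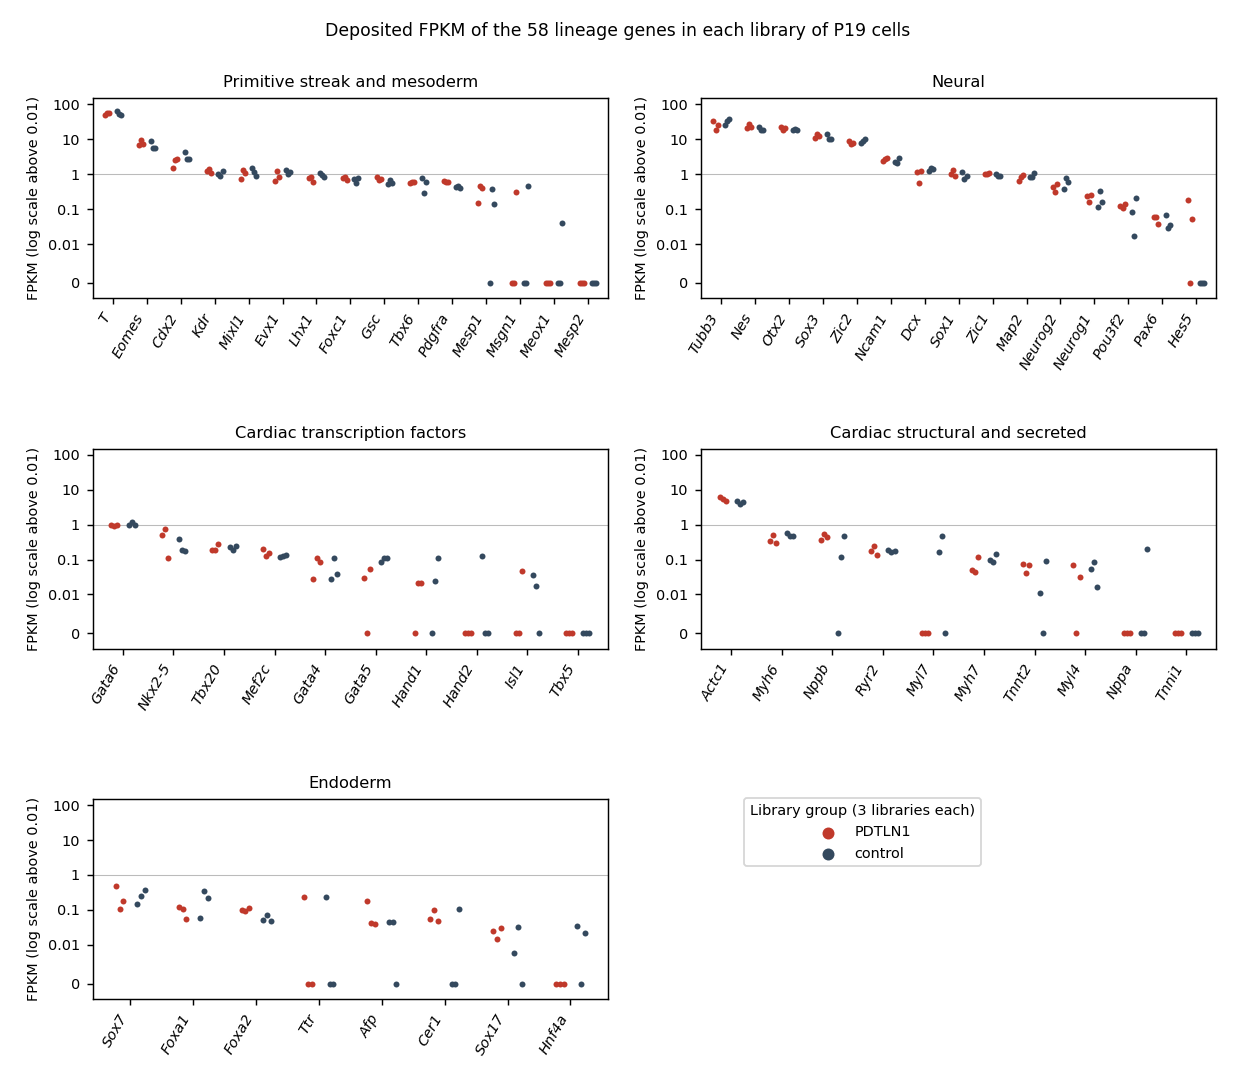
FPKM of each of the 58 genes (log axis above 0.01, with 0 shown at the foot) in 3 PDTLN1 libraries (red, left of each pair) and 3 control libraries (dark blue, right), grouped by set and ordered by mean level; the grey line marks 1 FPKM. T, Tubb3, Nes, Otx2 and Sox3 lie above 10 FPKM in all 6 libraries, while all 8 endoderm genes lie under 1 FPKM.

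The promoters of the members differed in CpG content, a feature that did not enter the choice of genes. CpG-rich promoters are typical of housekeeping and developmental regulator genes, and CpG-poor promoters of many tissue-specific genes. A RefSeq promoter window (mouse build GRCm38.p6, from 250 bases before to 50 after the transcription start) was matched by symbol for 46 of the 58 members. The median number of CpG dinucleotides per 300-base window was 18 for the 20 detected members with a window, 9.5 for the 24 at trace level and 7.75 for the 2 silent ones, beside 7 for all 27025 genes of the table. Trace members ranged from 3 to 41 CpGs and detected members from 2 to 37, so the classes overlapped widely. The sets differed more: the median was 25 for neural genes, 21.5 for cardiac factors, 12 for mesoderm, 6 for endoderm and 5.75 for heart structural genes. Windows were at hand for 12 of 15 neural genes, 6 of 10 cardiac factors, 13 of 15 mesoderm genes, 5 of 8 endoderm genes and 10 of 10 structural genes. The detection classes also differed in their mix of sets, so the contrasts by class and by set are not independent. The letters TATAAA, searched on both strands anywhere in the window, occurred in 11 members (23.9%) and in 15.7% of all genes. By class they occurred in 5 detected members, which was 25%, in 6 trace members, which was also 25%, and in 0 silent members.

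4 windows are printed with each CpG in capitals, and they do not span the range of CpG counts. T was the member with the highest level, and Pdgfra the one with the smallest p-value between the groups. Mesp2 was silent, and Nppa is a heart gene at trace level. T has 17 CpGs (chr17:8434173-8434472, plus strand), Pdgfra has 5 (chr5:75152001-75152300, plus strand), Mesp2 has 10 (chr7:79810477-79810776, plus strand) and Nppa has 6 (chr4:148000472-148000771, plus strand). Of these 4, TATAAA was found in Nppa alone.
T: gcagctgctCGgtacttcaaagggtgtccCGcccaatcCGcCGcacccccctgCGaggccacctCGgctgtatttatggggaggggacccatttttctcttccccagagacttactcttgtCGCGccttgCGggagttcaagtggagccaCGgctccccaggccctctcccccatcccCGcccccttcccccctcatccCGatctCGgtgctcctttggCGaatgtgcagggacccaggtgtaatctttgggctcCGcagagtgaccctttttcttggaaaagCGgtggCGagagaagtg
Pdgfra: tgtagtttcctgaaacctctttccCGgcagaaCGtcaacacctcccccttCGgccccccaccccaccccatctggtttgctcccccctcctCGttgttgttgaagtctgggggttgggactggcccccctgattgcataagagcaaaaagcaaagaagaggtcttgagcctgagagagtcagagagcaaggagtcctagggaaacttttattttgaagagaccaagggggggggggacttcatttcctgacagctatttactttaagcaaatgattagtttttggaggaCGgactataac
Mesp2: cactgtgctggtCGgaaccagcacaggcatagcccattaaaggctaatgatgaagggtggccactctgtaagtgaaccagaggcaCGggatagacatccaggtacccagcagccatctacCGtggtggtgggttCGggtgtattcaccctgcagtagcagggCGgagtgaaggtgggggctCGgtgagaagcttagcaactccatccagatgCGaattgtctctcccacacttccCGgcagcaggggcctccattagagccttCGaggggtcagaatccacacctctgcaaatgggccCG
Nppa: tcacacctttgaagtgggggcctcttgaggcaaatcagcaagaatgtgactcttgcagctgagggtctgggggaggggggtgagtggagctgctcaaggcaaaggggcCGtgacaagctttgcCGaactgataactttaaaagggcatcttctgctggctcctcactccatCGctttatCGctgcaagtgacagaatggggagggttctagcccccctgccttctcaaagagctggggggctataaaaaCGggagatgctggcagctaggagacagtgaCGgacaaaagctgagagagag

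**Figure D2:**
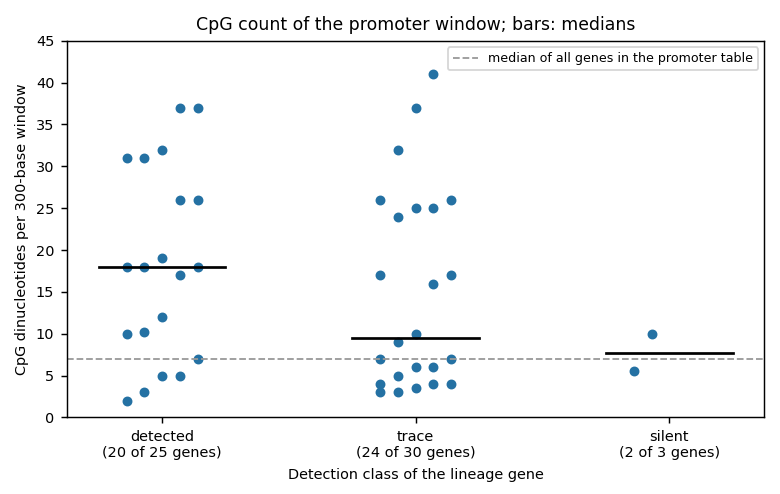
CpG dinucleotides per 300-base promoter window (vertical axis) of the members with a window, by detection class; each point is a gene (mean over its windows where it has several), black bars are class medians and the dashed line is the median of all genes, 7. The medians are 18 for detected, 9.5 for trace and 7.75 for silent members, with wide overlap.

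Among the primitive streak and mesoderm genes, T (Brachyury, the T-box factor that marks the streak; ENSMUSG00000062327, chromosome 17, 8434423 to 8442496 in GRCm38) had the highest level of all 58 members. Its level was above that of 95.1% of the genes with a count in all 6 libraries. It had 48.8, 56.8 and 57.5 FPKM in PDTLN1 libraries 1, 2 and 3, against 64.8, 54.2 and 49.1 FPKM in control libraries 1, 2 and 3. Control library 1 was highest and PDTLN1 library 1 lowest, so both extremes came from libraries numbered 1 and the groups overlapped. The log2 fold change, PDTLN1 over control, was -0.05 ± 0.11 (SE), with a 95% interval of -0.29 to 0.20.

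Eomes, the T-box factor of the streak and of definitive endoderm, had 6.80, 9.41 and 7.17 FPKM in PDTLN1 libraries 1, 2 and 3, against 8.91, 5.84 and 5.56 FPKM in control libraries 1, 2 and 3. Its 3 highest values were in PDTLN1 libraries 2 and 3 and control library 1, the same libraries as for T. Its log2 fold change was 0.20 ± 0.21 (SE).

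Cdx2, a homeobox factor of posterior mesoderm and trophectoderm (ENSMUSG00000029646, chromosome 5, 147300805 to 147307270), was the only tested member with every PDTLN1 library below every control library in scaled CPM. It had 3.48, 5.74 and 5.98 CPM in PDTLN1 libraries 1, 2 and 3, against 9.98, 6.10 and 6.01 CPM in control libraries 1, 2 and 3. The nearest values of the groups all but touched, and in FPKM the groups overlapped, with 1.53, 2.54 and 2.65 in PDTLN1 libraries 1, 2 and 3 and 4.40, 2.69 and 2.65 in control libraries 1, 2 and 3. Most of the difference lay between control library 1 and PDTLN1 library 1. The log2 fold change was -0.53 ± 0.28 (SE), with an edgeR p-value of 0.0856 and an adjusted p-value of 0.989. With both libraries numbered 1 left out it was -0.05, and with the first principal component of the libraries as a covariate it was -0.76 (adjusted p = 0.444 with edgeR).

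Pdgfra, the receptor for platelet-derived growth factor that marks paraxial and cardiac mesoderm (ENSMUSG00000029231, chromosome 5, 75152292 to 75198215), was the only tested member with every PDTLN1 library above every control library. It had 102, 105 and 104 counts in PDTLN1 libraries 1, 2 and 3, against 67, 73 and 70 counts in control libraries 1, 2 and 3. Scaled for library size, these were 9.87, 9.12 and 8.88 CPM in PDTLN1 libraries, against 6.43, 6.85 and 6.27 CPM in control libraries, and the lowest PDTLN1 library stood clear of the highest control library. The fold change was 1.43, or 0.51 ± 0.15 (SE) on the log2 scale, with a 95% interval of 0.18 to 0.84. The edgeR p-value was 0.00676, and the p-value adjusted over the whole table was 0.989. The level was low in both groups, 0.621 ± 0.032 FPKM with PDTLN1 and 0.434 ± 0.020 FPKM in controls (SD, n = 3 each). Of its exon bases, 4.55% are also annotated to Gm42802 on the opposite strand, which counting without known strand handling cannot separate. Gm42802 is the largest overlap among 3 genes, and the share does not include the others.

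The other mesoderm genes with a test overlapped between the groups. Kdr, the vascular endothelial growth factor receptor of early blood and vessel progenitors, averaged 1.26 ± 0.18 FPKM with PDTLN1 and 1.06 ± 0.19 FPKM in controls (SD, n = 3 each), with a log2 fold change of 0.24. Mixl1, a streak homeobox factor, averaged 1.07 ± 0.33 FPKM with PDTLN1 and 1.18 ± 0.30 FPKM in controls (-0.14). Evx1, a homeobox factor of the posterior streak, averaged 0.897 ± 0.309 FPKM with PDTLN1 and 1.16 ± 0.13 FPKM in controls (-0.37). The standard errors of these 3 log2 fold changes were 0.18, 0.31 and 0.27, and each 95% interval held 0. Lhx1, a LIM homeobox factor of the organizer and of intermediate mesoderm, averaged 0.746 ± 0.111 FPKM with PDTLN1 and 0.955 ± 0.124 FPKM in controls (-0.36). Foxc1, a forkhead factor of paraxial mesoderm, averaged 0.763 ± 0.079 FPKM with PDTLN1 and 0.704 ± 0.119 FPKM in controls (0.11). Tbx6, the T-box factor of presomitic mesoderm, averaged 0.587 ± 0.033 FPKM with PDTLN1 and 0.558 ± 0.257 FPKM in controls (0.07).

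The mesoderm genes too low for a test were Gsc, Mesp1, Msgn1 and Meox1, besides the silent Mesp2. Gsc, the organizer homeobox factor, had 11, 10 and 11 counts in PDTLN1 libraries 1, 2 and 3, against 7, 9 and 8 counts in control libraries 1, 2 and 3. Mesp1, which marks the first heart progenitors, had 2, 7 and 6 counts in PDTLN1 libraries 1, 2 and 3, against 0, 5 and 2 counts in control libraries 1, 2 and 3. Msgn1, a presomitic factor, had 2 counts over the PDTLN1 libraries and 3 over the control libraries, and Meox1, a somite homeobox factor, had 0 with PDTLN1 and 1 in controls. The 5 mesoderm genes at trace level, Tbx6 included, summed to 94 counts over PDTLN1 libraries and 76 over control libraries.

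Of the cardiac transcription factors, Gata6, a zinc finger factor of heart and endoderm, had the highest level. It had 0.995, 0.924 and 0.993 FPKM in PDTLN1 libraries 1, 2 and 3, against 0.959, 1.17 and 0.980 FPKM in control libraries 1, 2 and 3. The groups overlapped, and the log2 fold change was -0.10 ± 0.21 (SE). Nkx2-5, a homeobox factor that marks committed heart progenitors, had 8, 13 and 2 counts in PDTLN1 libraries 1, 2 and 3, against 6, 3 and 3 counts in control libraries 1, 2 and 3, and was too low for a test. Its lowest value was in PDTLN1 library 3 and its highest in PDTLN1 library 2. Tbx20, a T-box factor of the heart, had 0.182, 0.189 and 0.286 FPKM in PDTLN1 libraries 1, 2 and 3, against 0.222, 0.190 and 0.247 FPKM in control libraries 1, 2 and 3. Its log2 fold change was 0.00 ± 0.31 (SE), with a 95% interval of -0.71 to 0.70 that spans more than a 1.5-fold change either way. Mef2c, a MADS-box factor of muscle that is also used in neurons, averaged 0.158 ± 0.037 FPKM with PDTLN1 and 0.129 ± 0.009 FPKM in controls (SD, n = 3 each), with a log2 fold change of 0.28 ± 0.21 (SE).

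The factors that define the heart fields were near the limit of counting. Gata4 had 18 counts over the PDTLN1 libraries and 13 over the control libraries. Gata5, its close relative, had 1, 0 and 2 counts in PDTLN1 libraries 1, 2 and 3, against 3, 4 and 4 counts in control libraries 1, 2 and 3. Isl1, the factor of the second heart field and of motor neurons, had 3 counts in each group. Hand1 and Hand2, factors of the ventricles and outflow tract, had 2 and 0 counts over the PDTLN1 libraries, against 6 and 3 over the control libraries. Of the exon bases of Hand2, 19.6% overlap a gene on the opposite strand, and of those of Gata5, 7.87% do. Tbx5 had 0 in both groups. The 6 factors at trace level summed to 49 counts over PDTLN1 libraries and 48 over control libraries.

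Among the heart structural genes, Actc1, the cardiac alpha actin, stood well above the rest. It had 6.19, 5.48 and 4.66 FPKM in PDTLN1 libraries 1, 2 and 3, against 4.85, 3.93 and 4.37 FPKM in control libraries 1, 2 and 3. PDTLN1 libraries 1 and 2 were above all controls, and PDTLN1 library 3 lay among them. The log2 fold change was 0.31 ± 0.17 (SE), with an edgeR p-value of 0.107 and an adjusted p-value of 0.989. Reads of the near-identical actin genes may be shared, so the level of Actc1 is uncertain.

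Myh6, the alpha myosin heavy chain of the adult mouse heart, had 0.344, 0.502 and 0.307 FPKM in PDTLN1 libraries 1, 2 and 3, against 0.579, 0.476 and 0.480 FPKM in control libraries 1, 2 and 3. PDTLN1 library 2 lay among the controls and the other 2 PDTLN1 libraries lay below them. The log2 fold change was -0.41 ± 0.25 (SE). Myh7, the beta myosin heavy chain that precedes it in the fetal mouse ventricle, averaged 0.0703 ± 0.0395 FPKM with PDTLN1 and 0.112 ± 0.032 FPKM in controls (SD, n = 3 each). Its log2 fold change of -0.66 ± 0.47 (SE) was the lowest of the tested members and rested on 23 counts over PDTLN1 libraries and 35 over control libraries. Myh6 and Myh7 are close copies of each other, so reads may be split between them. Ryr2, the calcium release channel of heart muscle and brain, averaged 0.184 ± 0.059 FPKM with PDTLN1 and 0.175 ± 0.008 FPKM in controls (SD, n = 3 each), with a log2 fold change of 0.07.

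The remaining heart genes were at trace level or silent. Nppb, the B-type natriuretic peptide, had 3, 5 and 4 counts in PDTLN1 libraries 1, 2 and 3, against 0, 1 and 4 counts in control libraries 1, 2 and 3. Nppa, the atrial natriuretic peptide, had 0 counts with PDTLN1 and 2 in controls, and 61.5% of its exon bases overlap a gene annotated on the opposite strand. Tnnt2, the cardiac troponin T, had 18 counts over PDTLN1 libraries and 10 over control libraries. The atrial myosin light chains Myl4 and Myl7 had 6 and 0 counts over the PDTLN1 libraries, against 9 and 4 over the control libraries. The 6 genes at trace level, Myh7 included, summed to 59 counts over PDTLN1 libraries and 65 over control libraries.

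No endoderm marker had enough counts for a test. Sox7, a factor of extraembryonic endoderm and endothelium, had 17, 4 and 7 counts in PDTLN1 libraries 1, 2 and 3, against 5, 9 and 14 counts in control libraries 1, 2 and 3, which summed to 28 in each group. Foxa1, a pioneer factor of endoderm, had 4, 4 and 2 counts in PDTLN1 libraries 1, 2 and 3, against 2, 12 and 8 counts in control libraries 1, 2 and 3. Foxa2, the pioneer factor of definitive endoderm and node, had 4, 4 and 5 counts in PDTLN1 libraries 1, 2 and 3, against 2, 3 and 2 counts in control libraries 1, 2 and 3. Sox7 and Foxa1 overlapped between the groups, while Foxa2 was separated by 1 count.

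The other endoderm genes were lower still. Afp, the fetal serum protein of yolk sac and liver, had 12 counts over PDTLN1 libraries, 8 of them in library 1, and 4 over control libraries. Sox17, the factor of definitive and primitive endoderm, had 9 counts over PDTLN1 libraries and 5 over control libraries, and 16.8% of its exon bases overlap a gene on the opposite strand. Cer1, a secreted antagonist of Nodal from anterior endoderm, had 4 counts with PDTLN1 and 2 in controls. Ttr, the carrier of thyroid hormone, had 3 in each group, and Hnf4a, a nuclear receptor of visceral endoderm and liver, had 0 with PDTLN1 and 5 in controls. The 8 genes together gave 79 counts over PDTLN1 libraries and 76 over control libraries, too few for a fold change of any single gene. Among untested members of any set with at least 10 counts over the 6 libraries, 15 in all, the raw counts of Gsc and Foxa2 lay higher and those of Gata5 lower with no overlap between the groups. Over the 3041 untested genes of that depth, 3.58% lay higher and 2.96% lower in the same way. This look at untested genes was chosen after their values were seen.

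Among the neural genes, Tubb3, the class III beta tubulin of neurons, had the highest level. It had 34.4, 18.4 and 25.8 FPKM in PDTLN1 libraries 1, 2 and 3, against 26.3, 34.1 and 37.1 FPKM in control libraries 1, 2 and 3. PDTLN1 library 1 was as high as the controls numbered 2 and 3, and control library 1 was as low as PDTLN1 library 3. The log2 fold change was -0.32 ± 0.24 (SE), and reads shared with other tubulin genes make the level uncertain.

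Nes, the intermediate filament nestin of neural progenitors, had 20.8, 28.4 and 22.9 FPKM in PDTLN1 libraries 1, 2 and 3, against 22.82, 18.68 and 18.95 FPKM in control libraries 1, 2 and 3. PDTLN1 libraries 2 and 3 and control library 1 were the 3 highest, and the groups overlapped. Its log2 fold change was 0.25 ± 0.13 (SE), with an edgeR p-value of 0.0836 and an adjusted p-value of 0.989. Otx2, the homeobox factor of epiblast and forebrain, had 23.3, 17.9 and 20.6 FPKM in PDTLN1 libraries 1, 2 and 3, against 17.96, 20.02 and 18.95 FPKM in control libraries 1, 2 and 3. The lowest and the highest value of Otx2 were both in the PDTLN1 group, and the log2 fold change was 0.12 ± 0.10 (SE).

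The other neural transcription factors overlapped between the groups. Sox3, a SoxB1 factor of neural progenitors, averaged 12.7 ± 1.7 FPKM with PDTLN1 and 11.5 ± 2.4 FPKM in controls (SD, n = 3 each), with a log2 fold change of 0.13. Sox1, the earliest marker of neural plate, averaged 1.07 ± 0.20 FPKM with PDTLN1 and 0.924 ± 0.190 FPKM in controls (0.21). Zic2, a zinc finger factor of the dorsal neural tube, averaged 7.96 ± 0.84 FPKM with PDTLN1 and 8.89 ± 1.12 FPKM in controls (-0.16). Its relative Zic1 was lower per length and differed little between libraries, averaging 1.04 ± 0.04 FPKM with PDTLN1 and 0.935 ± 0.099 FPKM in controls (0.15). Neurog2, a proneural factor, averaged 0.428 ± 0.114 FPKM with PDTLN1 and 0.596 ± 0.206 FPKM in controls (-0.48), on 32 counts with PDTLN1 and 43 in controls. Pax6, a paired-box factor of forebrain and eye, averaged 0.0530 ± 0.0131 FPKM with PDTLN1 and 0.0441 ± 0.0207 FPKM in controls (0.26), on 40 counts with PDTLN1 and 32 in controls.

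Genes of differentiated neurons did not separate the groups either. Dcx, a microtubule-associated protein of migrating neurons, had 1.15, 0.577 and 1.24 FPKM in PDTLN1 libraries 1, 2 and 3, against 1.20, 1.48 and 1.45 FPKM in control libraries 1, 2 and 3. PDTLN1 library 2 was far below the other 5 libraries, and PDTLN1 library 3 was above control library 1. The log2 fold change was -0.49 ± 0.26 (SE), with an edgeR p-value of 0.104 and an adjusted p-value of 0.989. Map2, a dendritic microtubule-associated protein, averaged 0.828 ± 0.167 FPKM with PDTLN1 and 0.918 ± 0.119 FPKM in controls (SD, n = 3 each), with a log2 fold change of -0.15. Ncam1, the neural cell adhesion molecule, averaged 2.65 ± 0.26 FPKM with PDTLN1 and 2.40 ± 0.40 FPKM in controls (0.14). Of the 3 neural genes too low for a test, Neurog1, a proneural factor, had 12 counts over PDTLN1 libraries and 11 over control libraries. Pou3f2, a POU factor of neural progenitors, had 23 over PDTLN1 libraries and 19 over control libraries. Hes5, a Notch target, had 4 with PDTLN1 and 0 in controls, with 31.8% of its exon bases overlapping a gene on the opposite strand.

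**Figure D3:**
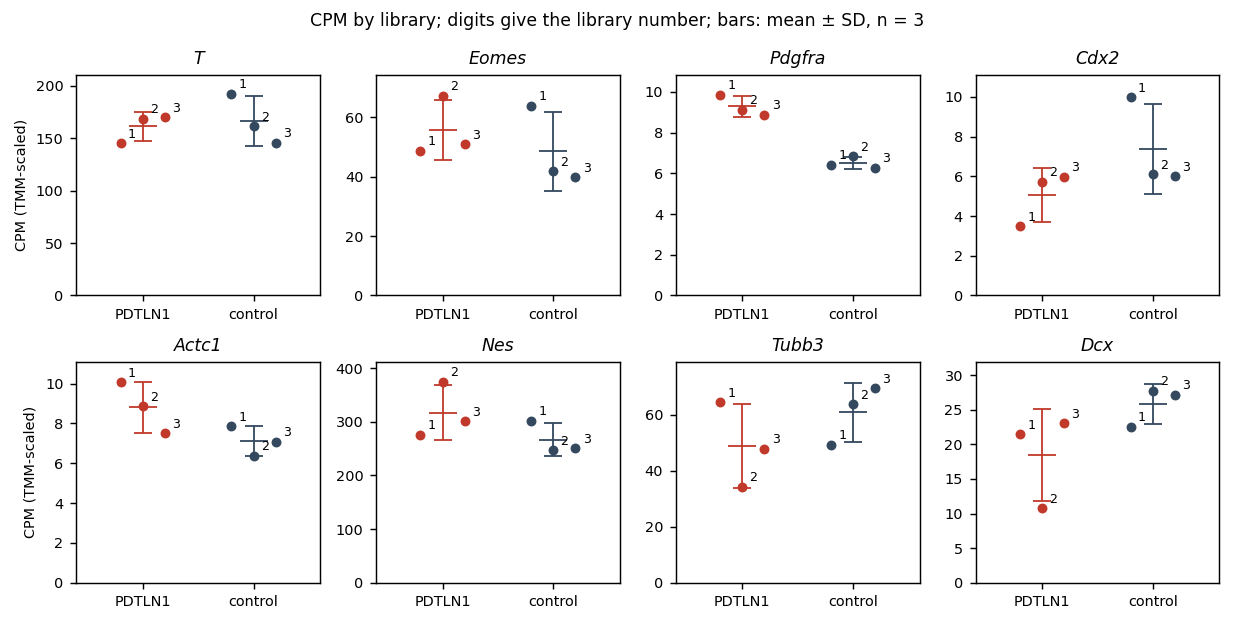
Scaled CPM (counts scaled to library size with TMM, linear axes starting at 0) of 8 members in each library, PDTLN1 left in red and control right in blue; digits are library numbers, and bars give the mean ± SD (n = 3). Pdgfra is the only one of the 8 with a clear gap between the groups, and in Dcx PDTLN1 library 2 stands apart at 10.8 CPM.

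Of the 58 members, 29 had enough counts for the fit over 13836 genes with edgeR's quasi-likelihood test, and 29 did not. Of the 29, 0 passed an adjusted p-value of 0.05, beside 3 (0.0217%) of all genes tested, and the adjusted p-values of the members were 0.989 to 0.999. At an unadjusted p-value under 0.05, 1 of 29 members (Pdgfra) was higher with PDTLN1, beside 2.3% of all genes, and 0 were lower, beside 1.69%. In scaled CPM, 1 of 29 (Pdgfra) lay higher with no overlap between the groups, beside 4.81% of all genes, and 1 of 29 (Cdx2) lay lower with no overlap, beside 4.98%. These counts were near the shares over all genes. On leaving out single libraries, the number of members at an unadjusted p-value under 0.05 was 3, 4 and 3 on leaving out PDTLN1 library 1, 2 or 3, and 4 on leaving out control library 1, and Pdgfra was among them each time. The count of adjusted calls over all genes was 8 or 6 on leaving out PDTLN1 library 1 or 2, and 13 or 5 on leaving out control library 1 or 3, with 0 members among them.

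The fold changes had no common direction. Of the tested members 15 lay above 0 and 14 below, with a median of 0.07 on the log2 scale, beside -0.001 over all genes tested. By set, the numbers above and below were 5 and 5 for mesoderm, 1 and 2 for cardiac factors, 2 and 2 for heart structural genes and 7 and 5 for neural genes. The 95% interval lay within a 2-fold change either way for 24 of the 29 members (82.8%), beside 88.8% of all genes tested. It lay within a 1.5-fold change for 9 members (31%), beside 69.9% of all genes. The members were thus measured less precisely than most genes, with a median SE of 0.209 against 0.129 on the log2 scale. For the other 20 members the interval reached past a 1.5-fold change in at least 1 direction, so this depth does not bound their change at that size.

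**Figure D4:**
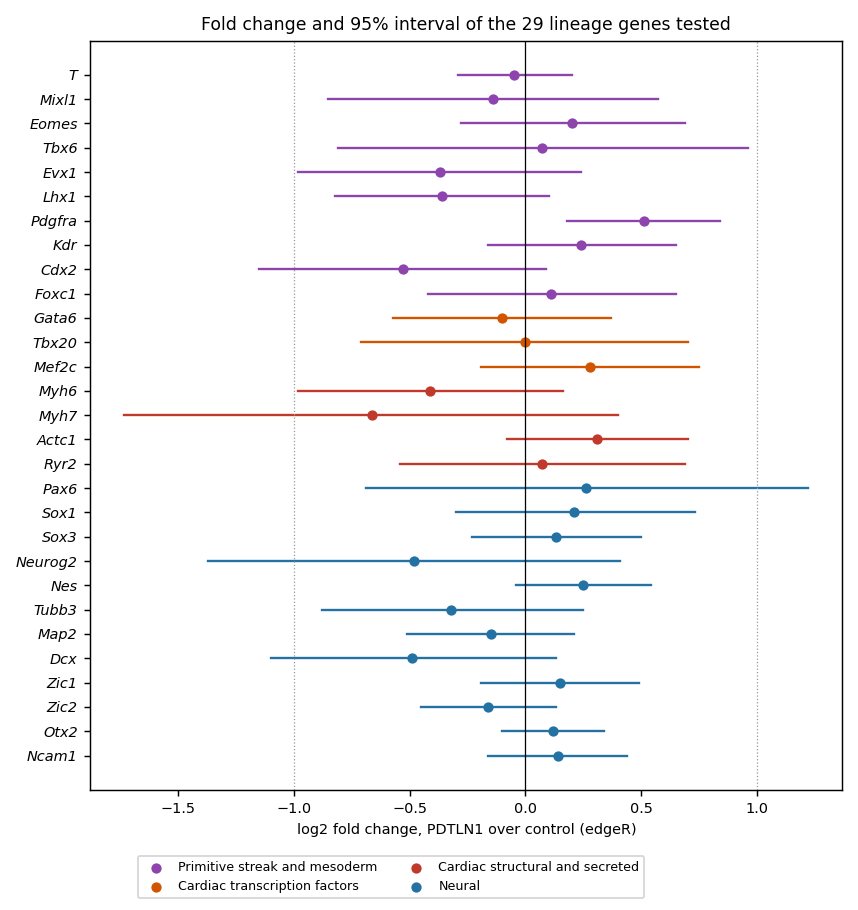
Log2 fold change, PDTLN1 over control (horizontal axis), with its 95% interval from edgeR for the 29 tested members, coloured by set; dotted lines mark 2-fold changes. Pdgfra is the only member whose interval (0.18 to 0.84) excludes 0, and 5 intervals, those of Cdx2, Myh7, Pax6, Neurog2 and Dcx, reach past a 2-fold change.

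The libraries differed from each other along a direction that did not follow treatment. The first principal component of all genes tested held 35% of the variance and took the values 18.3, -23.5 and -11.7 in PDTLN1 libraries 1, 2 and 3, and -17.0, 14.2 and 19.7 in control libraries 1, 2 and 3. PDTLN1 libraries 2 and 3 thus lay with control library 1, and PDTLN1 library 1 with control libraries 2 and 3. Of the 29 members, 6 (T, Eomes, Tbx6, Sox3, Nes and Zic1) had their 3 highest libraries in control 1 and PDTLN1 2 and 3, beside 14% of all genes tested. Tubb3 and Zic2 had theirs in PDTLN1 1 and control 2 and 3, a pattern held by 14.4% of all genes.

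The highest over the lowest CPM was 1.64 at the median of the 29 members and 1.33 at that of all genes tested. Low counts widen this ratio, and the medians were not matched for depth. Only 11 of the 29 members averaged at least 10 CPM, as did 9926 genes of the table, with 13836 tested. Of the 11 members with a mean of at least 10 CPM, 1 (Dcx) sat at 2 separate levels, with PDTLN1 library 2 alone at the low one. Over all genes of that depth, 162 of 9926 did. Sox2, a pluripotency and neural factor that is no member, had 28.8, 39.6 and 41.2 FPKM in PDTLN1 libraries 1, 2 and 3, against 47.9, 32.2 and 27.2 FPKM in control libraries 1, 2 and 3, and so had the same 3 highest libraries as T and Eomes. With both libraries numbered 1 left out, the log2 fold changes were 0.53 for Eomes, 0.44 for Nes, 0.40 for Sox3, -0.70 for Tubb3 and -0.33 for Zic2, and 0 members passed the adjustment with edgeR (smallest adjusted p = 0.109). The remaining PDTLN1 libraries were all negative on the first principal component, and the remaining controls all positive. In this setting treatment and the library split cannot be told apart.

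**Figure D5:**
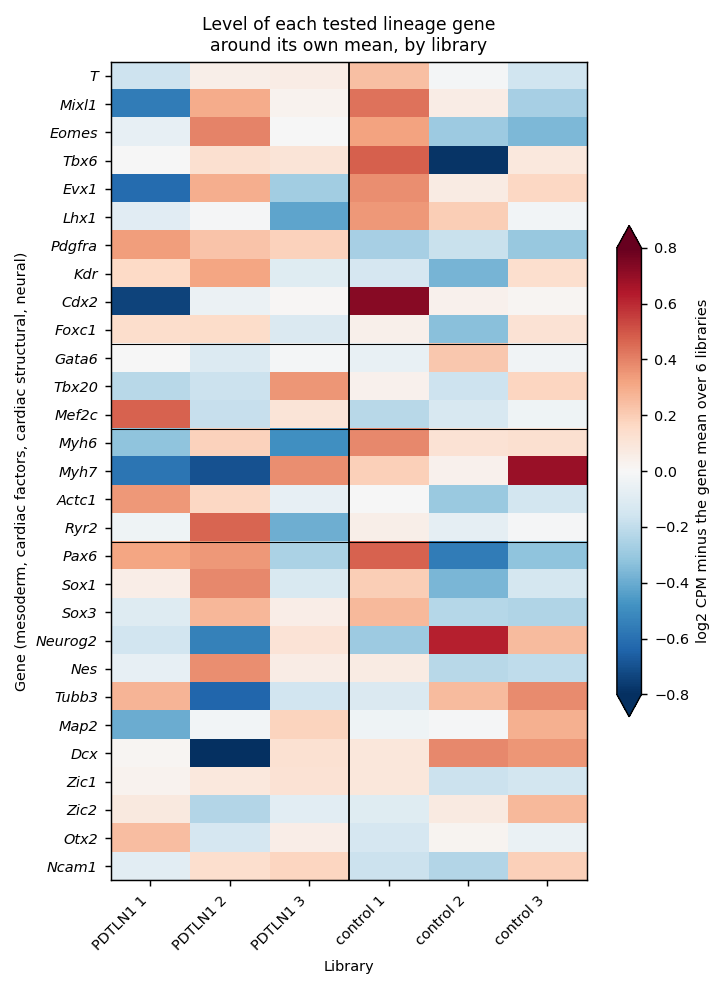
Log2 CPM of each tested member minus its own mean over the 6 libraries (red above, blue below the mean), with the 3 PDTLN1 libraries on the left and the 3 control libraries on the right; thin lines divide the sets. T, Eomes, Sox3 and Nes are highest in PDTLN1 libraries 2 and 3 and control library 1, and Pdgfra is the only row that is red in all PDTLN1 libraries and blue in all controls.

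The same comparison was made for 128 further genes of these lineages, 95 of which had enough counts. None passed the adjusted threshold with edgeR, whereas at an unadjusted p-value under 0.05 there were 4 higher and 1 lower with PDTLN1, beside 2.3% and 1.69% of all genes tested. Without overlap between the groups there were 5 higher and 3 lower, beside 4.81% and 4.98% of all genes tested, and the median log2 fold change was -0.03. Among these genes, Gja1, Fst, Sparc, Foxh1, Tagln, Tubb2b and Epcam averaged above every member in both groups, while Wnt3 and Wnt8a averaged below T. Gja1, the gap junction protein connexin 43, averaged 180 ± 26 FPKM with PDTLN1 and 191 ± 20 FPKM in controls, and Fst, the secreted activin antagonist follistatin, averaged 90.5 ± 9.8 FPKM with PDTLN1 and 86.0 ± 1.7 FPKM in controls (SD, n = 3 each). The streak ligands Wnt3 and Wnt8a averaged 21.4 ± 3.4 and 24.5 ± 1.1 FPKM with PDTLN1, against 22.2 ± 1.3 and 26.3 ± 3.1 FPKM in controls.

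By set, the further genes with the smallest p-values are given with their log2 fold changes, all at an adjusted p-value of 0.989 with edgeR. Of 20 tested mesoderm genes, 4 lay above 0 and 16 below, beside 6878 above and 6958 below of all genes tested. The median of the mesoderm genes was -0.14, beside -0.001, and 0 of them had an unadjusted p-value under 0.05. Their median SE was 0.242, beside 0.129, and a shift of the set was not tested. The lowest p-values of that set belonged to Cdx1, a relative of Cdx2, at -0.48 ± 0.26 (SE), and to the Notch ligand Dll1 at -0.51 ± 0.34. Of 22 cardiac genes, Zfpm2, a cofactor of Gata factors, was at 0.41 ± 0.13 and Acta2, the smooth muscle actin, at 0.28 ± 0.12. Of 21 endoderm genes, Rbp4, the retinol carrier, was at -0.65 ± 0.22 and the keratin Krt8 at 0.29 ± 0.12. Of 32 neural genes, Gap43, a growth cone protein, was at 0.27 ± 0.08 and Lhx2, a LIM homeobox factor of eye and forebrain, at 0.56 ± 0.29.

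Gap43 had 47.7, 47.4 and 44.3 CPM in PDTLN1 libraries 1, 2 and 3, against 38.4, 39.4 and 37.6 CPM in control libraries 1, 2 and 3. Zfpm2 had 15.0, 18.4 and 16.3 CPM in PDTLN1 libraries 1, 2 and 3, against 13.1, 11.6 and 12.7 CPM in control libraries 1, 2 and 3. Rbp4 had 3.58, 3.48 and 4.53 CPM in PDTLN1 libraries 1, 2 and 3, against 5.86, 4.88 and 7.53 CPM in control libraries 1, 2 and 3. The groups did not overlap in these 3 genes, with PDTLN1 above control in Gap43 and Zfpm2 and below it in Rbp4.

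Markers of other cell types were read beside these results. Of 10 fibroblast markers 7 reached 10 counts in all libraries, with a summed level of 14.6 to 15.7 FPKM in PDTLN1 libraries and 17.5 to 19.1 FPKM in control libraries. Of the 7 fibroblast genes tested, 1 (Thy1) lay lower with no overlap and 0 lay higher, beside 4.98% and 4.81% of all genes tested. Thy1 averaged 6.11 ± 0.83 FPKM with PDTLN1 and 8.37 ± 0.63 FPKM in controls (SD, n = 3 each). The 18 pluripotency markers summed to 1112 to 1174 FPKM in PDTLN1 libraries and 1174 to 1234 FPKM in control libraries, and Pou5f1 made up the largest share of that sum. Of the 16 pluripotency genes tested, 3 (Pou5f1, Utf1 and Dnmt3b) lay lower in scaled CPM with no overlap between the groups and 0 lay higher, beside 4.98% and 4.81% of all genes tested. For Dnmt3b the nearest values all but touched, with 343.7 CPM in PDTLN1 library 2 and 344 CPM in control library 3. In FPKM its groups overlapped, with 38.19 in PDTLN1 library 2 and 38.18 in control library 3. Utf1, a chromatin factor of undifferentiated embryonic cells, had 59.3, 61.8 and 50.2 CPM in PDTLN1 libraries 1, 2 and 3, against 77.2, 73.1 and 72.9 CPM in control libraries 1, 2 and 3. Its log2 fold change was -0.38 ± 0.09 (SE), with an edgeR p-value of 0.00248 and an adjusted p-value of 0.989. Of 13 blood markers 4 reached 10 counts, with 12.5 to 13.2 FPKM in PDTLN1 libraries and 11.3 to 13.9 FPKM in control libraries. The part of these other cell markers in the members' values was not tested.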

How the data were processed

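RNA was sequenced from 3 PDTLN1-treated and 3 control libraries of P19 cells with an Illumina TruSeq kit, per the labels' protocols. The authors deposited gene counts, which are whole numbers and not normalized, and FPKM, per the file headers. In each of the 15678 genes counted in all 6 libraries, the deposited FPKM implied 1 gene length within 0.1%, so levels between genes use FPKM and tests use counts. Bowtie 0.12.2, mm8 and mm9 are named in the submitters' processing notes with no role. The annotation, the counter and its handling of strand were not given in the sources used here, so overlapping and near-identical genes are uncertain. Of the 29 members tested, 11 had exons that overlap another gene, and in 0 did the largest overlap exceed 10% of exon bases. Of 34267 identifiers found in GENCODE mouse release M21 (GRCm38), 80.8% had the same position, among them 44 of the 58 members. Samples were grouped by the treatment label. The code P50 in the treated titles has no explanation in the labels.

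Counts were fitted with edgeR 4.0.16 in R 4.3.3 (filterByExpr with a minimum count of 10, TMM scaling, robust quasi-likelihood fit, two-sided, Benjamini-Hochberg over 13836 genes, threshold 0.05). The SE was the fold change over the square root of F. The edgeR and DESeq2 fits were tried on simulated counts with known changes. Those counts held no library split, so the split seen here was not covered. Alternatives were a block for the replicate number, leaving out single libraries or both libraries numbered 1, the first principal component as a covariate, DESeq2 1.42.0, other scalings, other filters and other thresholds. A gene with a mean of 10 CPM or more sat at 2 levels when the largest step between its ordered log2 values exceeded both 0.6 and 4 SDs of the values inside each level. All members are named. Values in every library are given for members that did not overlap between the groups or had an unadjusted p-value under 0.05, and for the 3 highest of each set. Of each list of further genes, the 2 with the smallest p-value are named with their fold change. Other genes given by library, and the abundant further genes, were picked with their values in view. The members, lists and tests were chosen with earlier results of these data known.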

Additional observations from a re-analysis of the deposited data

How the results depend on the processing

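No member passed an adjusted p-value of 0.05 in edgeR or under any of the 14 alternatives to its fit (13 for Myh7 and Neurog2, which the stricter filter left out, and for Pax6, which was too low for the fit without both libraries numbered 1), nor at a threshold of 0.1. Of 29 members, 22 kept the sign of their fold change under all of these, and 7 (T, Mixl1, Tbx6, Foxc1, Tbx20, Ryr2 and Otx2), whose values were near 0, changed it under at least 1. Pdgfra was at 0.45 to 0.55 on the log2 scale throughout, with adjusted p-values of 0.263 to 1. The count over all genes, 3 with edgeR, was 1 with the replicate number as a block, 8 with the first principal component as a covariate, 10 with DESeq2, 8 with no filter beyond 1 count, 91 with both libraries numbered 1 left out, and 2 to 13 with each library left out. Without both libraries numbered 1, treatment coincides with the library split, so the 91 calls cannot be assigned to PDTLN1. Deviations of same-numbered libraries were negatively correlated across genes (-0.36, -0.14 and -0.10 for numbers 1, 2 and 3). For each number, the PDTLN1 and control libraries had opposite signs on the first principal component. These correlations therefore cannot tell what the library number stands for. Members at an unadjusted p-value under 0.05 were 1 in the fit reported and also with the replicate block, 2 with DESeq2, 7 with the principal component, 6 without both libraries numbered 1, and 1 to 4 with each library left out.

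Further lineage genes past the adjusted threshold were 0, and 1 without both libraries numbered 1 (Sox11, 0.61 on the log2 scale, adjusted p = 0.0117 with edgeR). That setting does not tell treatment from the library split. At an unadjusted p-value under 0.05 they were 5, and 3 with the replicate block, 17 without both libraries numbered 1, and 3 to 12 with each library left out, with 12 on leaving out PDTLN1 library 1, 8 on leaving out PDTLN1 library 3 and 3 on leaving out control library 2. Detected members were 25, and 10 at 1 FPKM in every library, 31 at 0.1 FPKM, 37 at 1 count and 19 at 30 counts. Members with 0 counts were 3, and 3 to 5 with each library left out. The causes were not tested. No scaling moved the median of all genes by 0.1 on the log2 scale. Depth limits the 29 untested members, for which no fold change is given.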

Other observations

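Actn3, the fast skeletal muscle alpha-actinin, was the only 1 of 12 skeletal muscle markers with at least 10 counts in all 6 libraries. It had 11.5, 9.86 and 10.2 FPKM in PDTLN1 libraries 1, 2 and 3, against 12.2, 11.9 and 11.1 FPKM in control libraries 1, 2 and 3, a level per length between those of the lineage genes Sox3 and Zic2. The smooth muscle genes Tagln and Acta2 averaged 73.9 ± 10.9 and 57.2 ± 9.7 FPKM with PDTLN1, against 68.9 ± 3.5 and 47.1 ± 4.1 FPKM in controls (SD, n = 3 each). The cardiac actin Actc1 averaged 5.44 ± 0.76 FPKM with PDTLN1 and 4.38 ± 0.46 FPKM in controls.

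Sox11, a SoxC factor of immature neurons, had 15.0, 21.5 and 21.1 FPKM in PDTLN1 libraries 1, 2 and 3, against 21.7, 14.5 and 13.3 FPKM in control libraries 1, 2 and 3. Its 3 highest libraries were those of T, Eomes, Nes and Sox3, and its log2 fold change over all 6 libraries was 0.22 ± 0.23 (SE).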
